A study of Mus musculus with 10 samples.

Results

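TNF superfamily ligands and receptors were followed across 4 sorted progenitor populations of mouse bone marrow. The members were all genes whose symbol begins with Tnfsf or Tnfrsf and a digit, which gave 31 of the 23152 genes on the array, 11 ligands and 20 receptors. They rested on 274 probe sets, with 4 to 16 probe sets per gene and a median of 8, and a gene's level was the mean of its probe sets. Superfamily genes that carry other symbols, such as Tnf, Ltb, Fas and Cd27, are described separately.

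The ligands of this family are mostly type II membrane proteins that act as trimers, at the cell surface or after shedding, and their receptors carry cysteine-rich repeats outside the cell. Receptors with a death domain can start caspase activation or necroptosis. Many receptors, with or without a death domain, switch on NF-κB and MAP kinases through TRAF adaptors. In lymphoid tissue the family is known for RANKL and lymphotoxin in lymphoid organ formation, BAFF and APRIL in B cell survival, and 4-1BB, OX40 and CD27 in T cell costimulation.

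Total RNA of sorted cells from adult C57BL/6 mice was measured on Affymetrix arrays, 10 in all. Ly6D+CLPs and Ly6D-CLPs (common lymphoid progenitors, 2 arrays each) were sorted as lineage-negative, low for cKit and Sca-1, high for Flt3 and positive for CD127, the IL-7 receptor alpha chain, and were divided by the surface protein Ly6D. LMPP+s and LMPP-s (lymphoid-primed multipotent progenitors, 3 arrays each) were sorted as lineage-negative and high for cKit, Sca-1 and Flt3, and were divided into CD127-positive and CD127-negative cells. All 4 groups came from this strain, and the labels name no treatment or genetic change in any of them. Nothing in the labels ties a replicate to its own animal, pool or sort, so p-values measure the spread between these samples, which may be technical. The study divided LMPPs by CD127 and set both subsets against CLPs, and the comparisons below follow that plan.

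Values are log2 signals, and a difference of 1 is a 2-fold difference in signal. A low-signal limit of 4.44 was taken from 1437 olfactory, vomeronasal and taste receptor genes, as the 95th percentile of their mean levels, and the median of all genes was 4.56. Arrays of 1 group correlated at 0.9725 to 0.9855 over all genes, and the highest correlation between groups was 0.9811. The sort marker Il7r averaged 9.64 in Ly6D+CLPs, 9.31 in Ly6D-CLPs, 9.10 in LMPP+s and 4.32 in LMPP-s. Ly6d averaged 11.33, 5.88, 8.67 and 4.76 in the same order, so its RNA was higher in LMPP+s than in Ly6D-CLPs. The CLP and LMPP arrays carry 2 separate runs of archive numbers. Hybridisation in 1 or several sessions is not recorded in the labels, and any such difference cannot be told apart from the one between CLPs and LMPPs. Changes in these sorted bulk samples can come from fewer cells of a type or from less RNA per cell, which cannot be told apart.

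A mean at or above the limit in at least 1 group was found for 24 of the 31 members, and for 13323 of all 23152 genes. Of the 31, 15 had a mean at or above the limit in all 4 groups, 9 in some groups, and 7 in none. The 7 below it throughout were the ligands Tnfsf13b (BAFF), Tnfsf14 (LIGHT) and Tnfsf18 (GITRL) and the receptors Tnfrsf8 (CD30), Tnfrsf11a (RANK), Tnfrsf17 (BCMA) and Tnfrsf19 (TROY). An F test over the 4 groups was run in limma, with p-values adjusted over all genes by the Benjamini-Hochberg method at 0.05. It called 4 of the 31 members, against 9.38% of all genes. By kind these were 4 of the 11 ligands and 0 of the 20 receptors, and a difference between the kinds was not tested. The members and all genes are not matched for signal. At an unadjusted p under 0.05 the F test passed 4 ligands and 5 receptors. The share of all genes at that threshold was not computed, so these counts have no background to be read against. The 4 ligands were Tnfsf11, Tnfsf9, Tnfsf4 and Tnfsf13, with adjusted p of 0.000148, 0.00428, 0.00521 and 0.0357. The highest and lowest group means lay 0.37 to 2.29 log2 apart in ligands, with a median of 0.48, and 0.09 to 0.77 apart in receptors, with a median of 0.44.

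**Figure D1:**
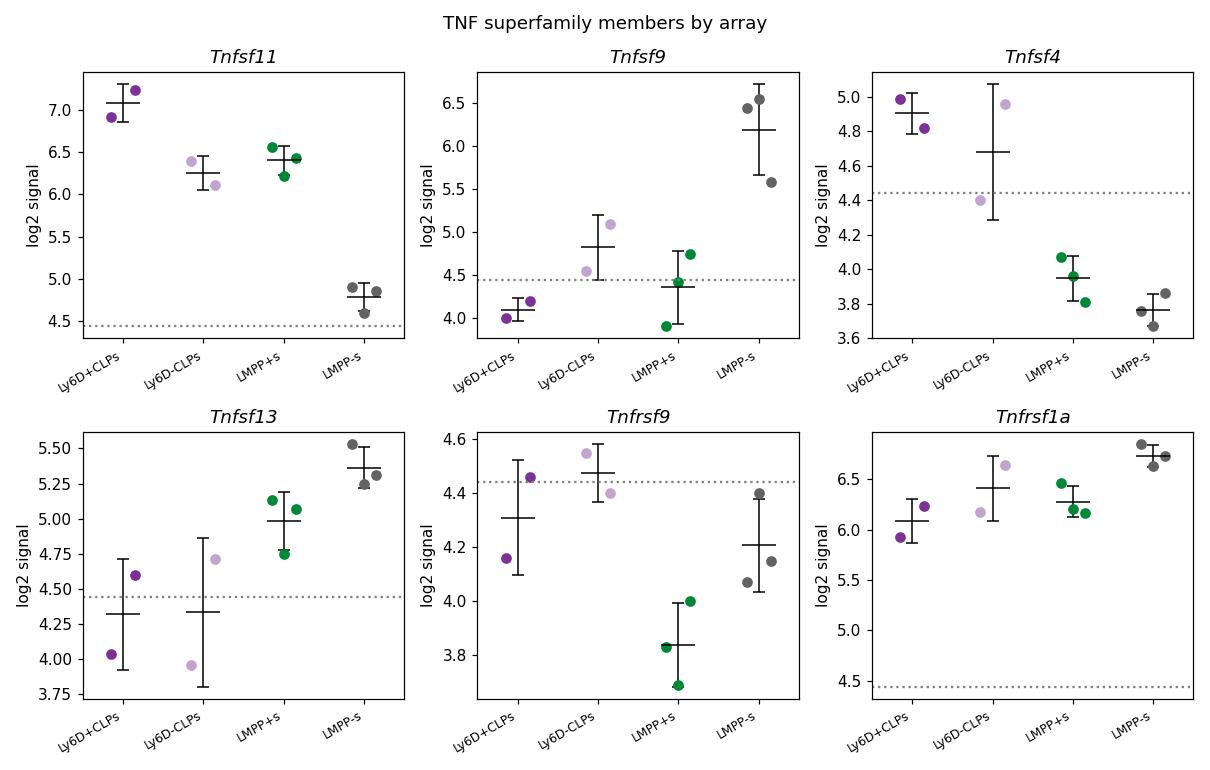
Levels (y axis, log2 signal) of 4 ligands and 2 receptors in Ly6D+CLPs, Ly6D-CLPs, LMPP+s and LMPP-s (x axis). Points are arrays, long bars are group means, error bars are SD and the dotted line is the low-signal limit of 4.44. The 3 LMPP-s arrays are the lowest for Tnfsf11, between 4.60 and 4.91, and the highest for Tnfsf9, between 5.58 and 6.55.

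Tnfsf11 (RANKL), the ligand of RANK that drives osteoclast formation and lymph node and thymic medulla development, varied most. It read 6.92 and 7.24 in Ly6D+CLPs, 6.40 and 6.11 in Ly6D-CLPs, 6.56, 6.22 and 6.43 in LMPP+s, and 4.91, 4.60 and 4.86 in LMPP-s. Every CD127-positive array stood above every LMPP-s array, with a gap of over 1 log2, and the Ly6D+CLPs stood above all other groups. LMPP+s exceeded LMPP-s by 1.62 log2 (SE 0.16), a 3.07-fold difference in signal (limma adjusted p = 0.000577), and 7 of 8 probe sets were higher. CLPs, taken as the mean of their 2 groups, exceeded LMPP-s by 1.88 (SE 0.15, limma adjusted p = 3.68e-05). Between CLPs and LMPP+s the difference was 0.26 and did not pass (95% interval -0.07 to 0.59, adjusted p = 0.352 in limma). With the brightest of its probe sets alone it was 1.46 and passed (limma adjusted p = 0.0147), and with Ly6D-CLPs alone it was -0.15 (limma adjusted p = 0.723).

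Within the CLPs, Tnfsf11 was 0.82 log2 higher in Ly6D+CLPs than in Ly6D-CLPs (SE 0.20), and all 8 probe sets lay on that side. This did not pass after adjustment over all genes (limma adjusted p = 0.201, unadjusted p = 0.001535). Ly6D+CLPs alone were 0.67 above LMPP+s, which also missed the threshold (adjusted p = 0.0621 in limma). In the order of levels, Ly6D-CLPs and LMPP+s were neighbours that overlapped, and LMPP-s stood apart from both.

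The 250 bases before the Tnfsf11 start, chr14:78308044-78308293 on the minus strand, are shown because this gene carries the clearest difference of the family. The sequence is from RefSeq on GRCm38.p6, and the capitals mark a match to the TATA box letters TATAAA, read on the opposite strand, 32 to 27 bases before the start.
Tnfsf11: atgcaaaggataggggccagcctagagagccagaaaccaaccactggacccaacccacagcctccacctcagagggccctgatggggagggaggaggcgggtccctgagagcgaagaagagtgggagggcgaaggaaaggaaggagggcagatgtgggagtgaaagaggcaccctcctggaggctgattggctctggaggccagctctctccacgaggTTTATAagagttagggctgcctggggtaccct
TATAAA was searched on both strands and occurs in 4063 of 32851 RefSeq promoter windows of this length (12.37%). It occurs in 4 of the 28 windows that cover 24 of the 31 members, those of Tnfsf11, Tnfsf18, Tnfrsf17 and Tnfrsf23. The NF-κB consensus motif, searched on both strands, has no match in this Tnfsf11 window.

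The receptors of Tnfsf11 showed low signal in the same cells. Tnfrsf11a (RANK), its signalling receptor, read 4.04 and 4.06 in Ly6D+CLPs and 4.30 and 3.60 in Ly6D-CLPs. It had 3.84, 4.43 and 4.44 in LMPP+s and 3.87, 4.45 and 3.96 in LMPP-s. All 4 group means were below the limit, and no comparison was called. Tnfrsf11b (osteoprotegerin), the secreted decoy receptor, read 4.57 and 4.49 in Ly6D+CLPs and 3.84 and 4.03 in Ly6D-CLPs. The difference of 0.60 log2 (SE 0.17) did not pass (limma adjusted p = 0.325). Its means in LMPP+s and LMPP-s were 4.28 and 4.31.

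Tnfsf9 (4-1BBL), which costimulates T cells through 4-1BB and is known from antigen-presenting and myeloid cells, ran the other way. It read 4.0 and 4.19 in Ly6D+CLPs, 4.55 and 5.09 in Ly6D-CLPs, 3.90, 4.42 and 4.74 in LMPP+s, and 6.45, 6.55 and 5.58 in LMPP-s. The LMPP-s arrays lay above all 7 others. LMPP+s overlapped Ly6D+CLPs and Ly6D-CLPs, and the 2 CLP groups did not overlap. LMPP+s were lower than LMPP-s (difference -1.84 log2, SE 0.28, limma adjusted p = 0.00825), and CLPs were also lower (-1.74, SE 0.26, limma adjusted p = 0.00164). Since the LMPP+s mean of 4.35 was under the limit, its fold is a bound, at least 3.38-fold lower in LMPP+s than in LMPP-s. All 5 probe sets were lower in LMPP+s and in CLPs than in LMPP-s. With its brightest probe set alone, both calls were lost (limma adjusted p = 0.343 for LMPP+s and 0.384 for CLPs, each against LMPP-s), with differences of -1.89 and -0.82.

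Markers of other cells also differed between the groups. The summed level of 11 monocyte and macrophage markers was 10.25 to 10.46 in LMPP+s and 11.24 to 11.83 in LMPP-s, and 6 of the 11 were called lower in LMPP+s, against 0.592% of all genes. The summed level of 11 mature granulocyte markers was 11.41 to 11.98 in LMPP+s and 8.3 to 10.07 in LMPP-s, with 6 called higher in LMPP+s, against 0.881% of all genes. In CLPs the monocyte and macrophage sum was 9.61 to 10.04 and the mature granulocyte sum 8.71 to 9.5. Erythroid and megakaryocyte markers, 8 measured, summed to 9.05 to 9.77 in LMPP+s and 7.87 to 8 in LMPP-s, with 3 called higher in LMPP+s. Their sum was 7.57 to 7.74 in CLPs. The mature granulocyte sum and the erythroid and megakaryocyte sum were both highest in LMPP+s, unlike Tnfsf11 and Tnfsf9. The sum of 11 B lineage markers was 10.43 to 10.64 in Ly6D+CLPs, 9.45 to 9.56 in Ly6D-CLPs, 9.17 to 9.26 in LMPP+s and 8.21 to 8.23 in LMPP-s, highest and lowest in the same groups as Tnfsf11. Of these 11, 2 were called higher in LMPP+s and 5 in CLPs, each against LMPP-s, where 5.08% of all genes were called higher in CLPs. Blnk was the highest of these 11 in every group but LMPP-s. It averaged 9.84 in Ly6D+CLPs, 8.92 in Ly6D-CLPs, 8.31 in LMPP+s and 5.92 in LMPP-s. Dendritic cell markers, 9 measured, gave 1 higher and 2 lower in LMPP+s than in LMPP-s, with sums of 10.99 to 11.1 and 10.96 to 11.14. These sums include Flt3, the highest gene of the list, with means of 10.17 in LMPP+s and 9.82 in LMPP-s. Both groups were sorted as high for Flt3, so the sums say little of the other dendritic markers. The sum of 9 T cell markers was 8.03 to 8.11 in Ly6D+CLPs and 7.78 to 7.92 in Ly6D-CLPs. In LMPP+s it was 7.53 to 7.73 and in LMPP-s 7.29 to 7.51. Of these 9, 2 were called higher in CLPs than in LMPP-s and none between the LMPP groups. Only 3 of the 9 had a mean at or above the limit in any group. Cd5 averaged 6.64 in Ly6D+CLPs and 5.31 in LMPP-s, and Thy1 averaged 5.97 and 4.80. The 8 NK and innate lymphoid markers summed to 6.95 to 7.23 over all arrays, and none was called. The part of these markers in the Tnfsf11 and Tnfsf9 differences was not tested.

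Tnfrsf9 (4-1BB), the receptor of Tnfsf9, read 4.16 and 4.46 in Ly6D+CLPs, 4.55 and 4.40 in Ly6D-CLPs, 3.83, 3.69 and 4.0 in LMPP+s, and 4.07, 4.40 and 4.15 in LMPP-s. CLPs were higher than LMPP+s by 0.55 log2 (SE 0.14, limma adjusted p = 0.0442), and the arrays did not overlap. The limit was passed on 2 of the 10 arrays, so the fold is bounded only at 1.01, and 11 of 15 probe sets were higher in CLPs. The call held in 5 of 20 alternative settings, with a limma adjusted p between 0.0235 and 0.554. LMPP+s and LMPP-s differed by -0.37, which was not called (adjusted p = 0.388 in limma).

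RefSeq gives Tnfrsf9 more than 1 start. The window at chr4:150927749-150927998 on the plus strand is shown because it holds 1 of the 2 member windows with the NF-κB consensus motif, the other being at Tnfrsf8. The capitals mark overlapping matches 43 to 33 bases before the start.
Tnfrsf9: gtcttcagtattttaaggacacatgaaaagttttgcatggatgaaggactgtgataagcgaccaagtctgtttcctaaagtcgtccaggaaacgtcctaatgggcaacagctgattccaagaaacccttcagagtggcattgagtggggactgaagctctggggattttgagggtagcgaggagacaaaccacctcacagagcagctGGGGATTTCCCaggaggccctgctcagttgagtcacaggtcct
The motif occurs in 2 of 28 member windows (7.14%) and in 1281 of all 32851 windows (3.9%).

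Tnfsf4 (OX40L), a costimulatory ligand of OX40 known from antigen-presenting cells, was the third ligand that varied. It read 4.99 and 4.82 in Ly6D+CLPs, 4.40 and 4.96 in Ly6D-CLPs, 4.07, 3.96 and 3.81 in LMPP+s, and 3.76, 3.67 and 3.86 in LMPP-s. The 4 CLP arrays lay above all 6 LMPP arrays, and the LMPP groups overlapped. CLPs exceeded LMPP+s by 0.85 log2 (SE 0.15, limma adjusted p = 0.00997) and LMPP-s by 1.03 (SE 0.15, limma adjusted p = 0.00136). Both LMPP means were under the limit, so the bound was at least 1.28-fold higher in CLPs. All 5 probe sets were higher in CLPs in both comparisons, but the brightest alone differed by 0.12 and 0.07, with limma adjusted p of 0.773 and 0.868. The difference from LMPP+s also missed the threshold without array 3 of LMPP+s, at 0.78 (limma adjusted p = 0.0502). Tnfrsf4 (OX40) averaged 4.79 in Ly6D+CLPs, 4.97 in Ly6D-CLPs, 5.18 in LMPP+s and 4.91 in LMPP-s and was called in no comparison. Tnfsf18 (GITRL), the next protein-coding gene to Tnfsf4 on chromosome 1, stayed between 2.28 and 3.40 on all arrays.

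Tnfsf13 (APRIL), a survival factor for plasma cells and activated B cells that myeloid cells are known to make, was the fourth. It read 4.04 and 4.60 in Ly6D+CLPs, 3.96 and 4.71 in Ly6D-CLPs, 5.13, 4.75 and 5.07 in LMPP+s, and 5.53, 5.25 and 5.31 in LMPP-s. Every LMPP array lay above every CLP array, LMPP-s lay highest, and both CLP groups overlapped. CLPs were lower than LMPP-s (difference -1.03 log2, SE 0.20, limma adjusted p = 0.00713), at least 1.90-fold lower, with 8 of 10 probe sets on that side. Against LMPP+s the difference was -0.65 (SE 0.20) and missed the threshold (adjusted p = 0.0865 in limma). It passed without array 2 of Ly6D-CLPs, at -0.84 (limma adjusted p = 0.0312), over genes above the limit alone (limma adjusted p = 0.0354) and with limma's trend and robust settings (adjusted p = 0.0492). LMPP+s and LMPP-s differed by -0.38 (adjusted p = 0.575 in limma). The monocyte and macrophage sums ran in the same order of groups, lowest in Ly6D+CLPs (9.61 to 9.71), then Ly6D-CLPs (9.91 to 10.04), LMPP+s and LMPP-s, with 8 of the 11 markers called lower in CLPs than in LMPP-s, against 8.36% of all genes. Their part in the Tnfsf13 difference was not tested. Tnfsf12 (TWEAK), the adjacent protein-coding gene on chromosome 11, averaged 4.96 in Ly6D+CLPs, 5.16 in Ly6D-CLPs, 5.18 in LMPP+s and 5.44 in LMPP-s and was not called.

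**Figure D2:**
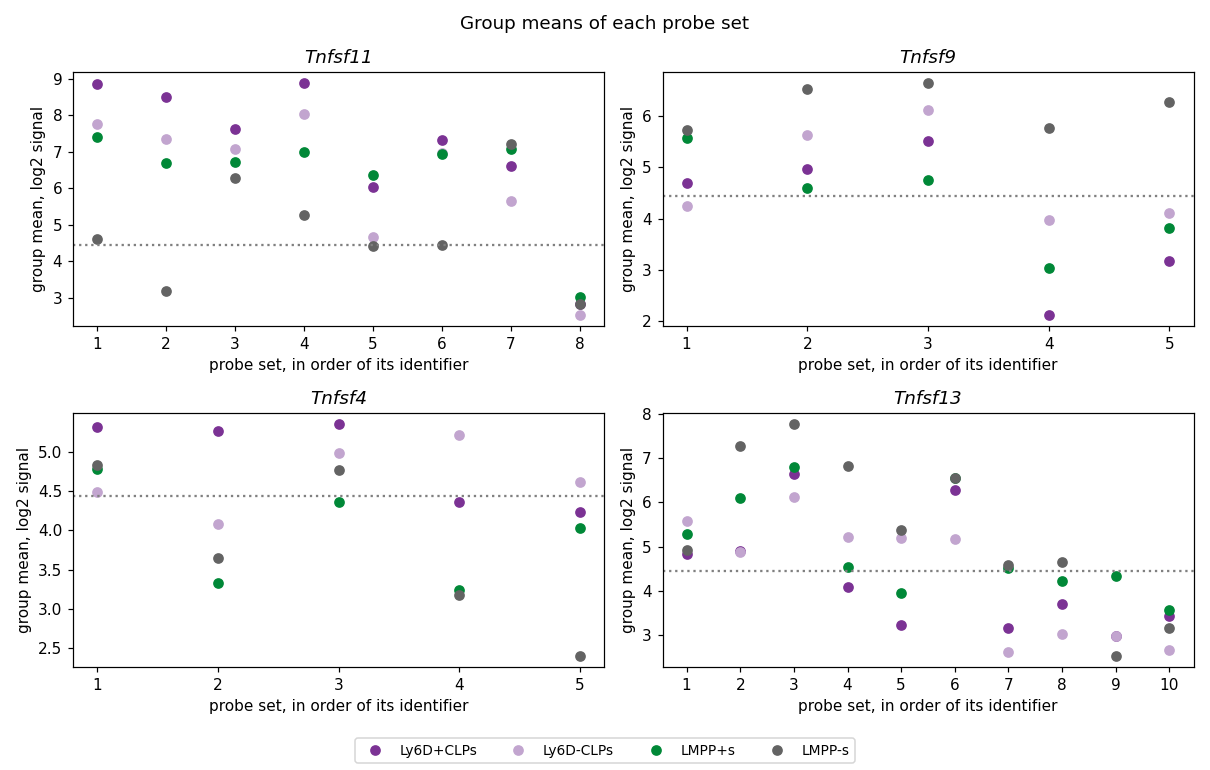
Group means (y axis, log2 signal) of each probe set of 4 ligands (x axis, probe sets in order of their identifier). Colours mark the 4 groups and the dotted line is the low-signal limit of 4.44. For Tnfsf11, 7 of 8 probe sets are higher in LMPP+s than in LMPP-s, and for Tnfsf9 all 5 are lower.

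The receptors of APRIL and BAFF were at low or medium signal. Tnfrsf13b (TACI) averaged 4.68 in Ly6D+CLPs, 4.66 in Ly6D-CLPs, 4.59 in LMPP+s and 4.66 in LMPP-s, the narrowest range of group means of all members. Its arrays spread more widely, the 2 Ly6D-CLPs arrays reading 5.20 and 4.13. Tnfrsf17 (BCMA) stayed below the limit in every group mean. Tnfrsf13c (BAFF-R), which carries survival signals in maturing B cells, read 7.28 and 7.18 in Ly6D+CLPs, 6.35 and 7.13 in Ly6D-CLPs, 6.28, 6.56 and 6.55 in LMPP+s, and 6.47, 6.73 and 6.35 in LMPP-s. Both Ly6D+CLPs arrays were above all others, whereas Ly6D-CLPs split, with 1 array among the LMPPs. Ly6D+CLPs exceeded LMPP+s by 0.77 and LMPP-s by 0.71, and neither passed (limma adjusted p = 0.082 and 0.0653). Tnfsf13b (BAFF) had its highest array at 3.96.

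Among the death-domain receptors, Tnfrsf1a (TNFR1), the main receptor for soluble TNF, read 5.93 and 6.24 in Ly6D+CLPs, 6.18 and 6.64 in Ly6D-CLPs, 6.46, 6.21 and 6.17 in LMPP+s, and 6.85, 6.63 and 6.73 in LMPP-s. Ly6D+CLPs alone were lower than LMPP-s (difference -0.65 log2, SE 0.18, limma adjusted p = 0.0463), and their arrays did not overlap. The shares of all genes called or not overlapping in this comparison were not computed, and Tnfrsf1a was not rerun in other settings. The F test did not call it (limma adjusted p = 0.131). CLPs together differed from LMPP-s by -0.48 (limma adjusted p = 0.061) and LMPP+s differed from LMPP-s by -0.46 (limma adjusted p = 0.296), neither of which passed. Tnfrsf21 (DR6) averaged 6.61 in Ly6D+CLPs, 6.67 in Ly6D-CLPs, 6.99 in LMPP+s and 7.11 in LMPP-s. Its difference between CLPs and LMPP-s was -0.47 (limma adjusted p = 0.0626). Tnfrsf10b, the mouse TRAIL receptor, stayed between 4.35 and 5.06, Tnfrsf25 (DR3) between 3.93 and 4.65, and neither was called.

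The remaining receptors were called in no comparison. Tnfrsf1b (TNFR2), which lacks a death domain, averaged 6.45 in Ly6D+CLPs, 6.02 in Ly6D-CLPs, 6.35 in LMPP+s and 6.32 in LMPP-s. Tnfrsf26, Tnfrsf22 and Tnfrsf23, which lie next to one another on chromosome 7 and of which the last 2 are decoy TRAIL receptors in mice, spanned 7.26 to 8.12, 4.96 to 6.04 and 3.91 to 5.44. Tnfrsf12a (Fn14), the TWEAK receptor, was 0.40 higher in CLPs than in LMPP+s (limma adjusted p = 0.106). Tnfrsf14 (HVEM) spanned 4.99 to 5.68 and Tnfrsf18 (GITR) 4.95 to 6.04. The ligands Tnfsf10 (TRAIL), Tnfsf15 (TL1A) and Tnfsf8 (CD30L) spanned 5.16 to 6.04, 4.29 to 5.09 and 3.90 to 5.08 and were likewise not called.

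Counted over the family, LMPP+s against LMPP-s gave 1 higher and 1 lower of 31 members, against 1.47% of all genes, and both were ligands. At an unadjusted p under 0.05 there were 4 members, against 11.1% of all genes, and the arrays of 6 did not overlap, against 17.7%. The 95% intervals of the 20 receptors, none called and 2 passing unadjusted in limma, lay between -0.82 and 1.16. CLPs against LMPP+s gave 2 higher and 0 lower, against 6.18% of all genes, with 7 passing unadjusted (background 21.2%) and 7 not overlapping (19.1%). CLPs against LMPP-s gave 2 higher and 2 lower, all ligands, against 13.4%, with 9 passing unadjusted (background 26.8%) and 7 not overlapping (23.6%). The median difference of the 31 was -0.011, -0.076 and -0.032 in these 3 comparisons, and that of all genes was -0.005, -0.001 and 0.016. Ly6D+CLPs against Ly6D-CLPs gave 0 of 31 in limma, with and without a variance trend, against 0.0993% of all genes. The 95% intervals in this comparison were wide, lying between -1.48 and 1.25 log2 in ligands and between -0.76 and 1.2 in receptors. There 3 members passed at an unadjusted p under 0.05, against 9.1% of all genes, with a median of 0.058 against -0.003. With 2 arrays a side, the arrays of 13 members did not overlap, against 37.6% of all genes. The comparisons share groups (LMPP+s, LMPP-s and CLPs each enter 2 of them), so their calls are not independent of one another.

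**Figure D3:**
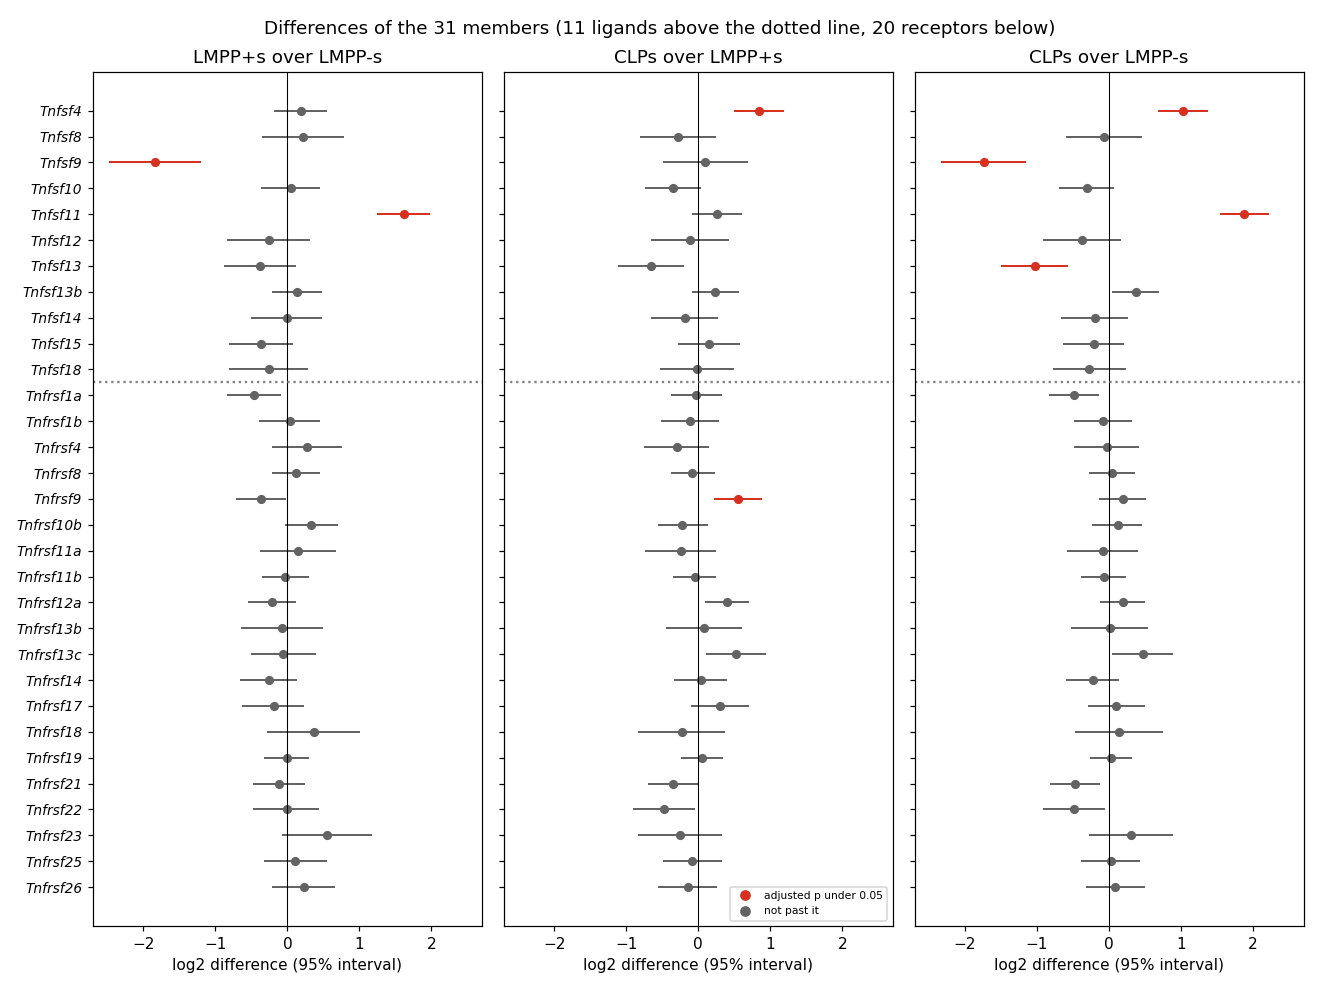
Log2 differences (x axis, with 95% intervals from limma) of the 31 members (y axis, ligands above the dotted line and receptors below) for LMPP+s over LMPP-s, CLPs over LMPP+s and CLPs over LMPP-s. Red marks an adjusted p under 0.05. The ligands Tnfsf11, Tnfsf9, Tnfsf4 and Tnfsf13 are red in at least 1 panel, and Tnfrsf9 is the one red receptor.

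Superfamily genes under other symbols were read in the same fit, from a list of 7 measured ligands and 8 measured receptors. Tnf itself read 9.0 and 9.26 in Ly6D+CLPs, 8.78 and 8.85 in Ly6D-CLPs, 8.74, 8.37 and 8.25 in LMPP+s, and 8.61, 8.04 and 8.0 in LMPP-s. All CLP arrays were above all LMPP arrays. CLPs exceeded LMPP-s by 0.75 log2 (SE 0.18, limma adjusted p = 0.0184) and LMPP+s by 0.52, which missed the threshold (adjusted p = 0.12 in limma). Ltb (lymphotoxin beta), which pairs with lymphotoxin alpha in lymphoid organ formation, read 5.27 and 5.25 in Ly6D+CLPs, 5.65 and 5.84 in Ly6D-CLPs, 6.37, 6.50 and 6.34 in LMPP+s, and 5.39, 6.06 and 5.76 in LMPP-s. LMPP+s were the highest group, CLPs were lower than LMPP+s (difference -0.90, SE 0.16, limma adjusted p = 0.00903), and LMPP+s and LMPP-s did not pass at 0.67 (limma adjusted p = 0.105).

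Of the 7 ligands, Tnf was the 1 called higher in CLPs than in LMPP-s and Ltb the 1 called lower in CLPs than in LMPP+s, against 5.08% and 3.94% of all genes. None was called between LMPP+s and LMPP-s or between the CLP groups, where 2 and 3 passed unadjusted in limma, against 11.1% and 9.1% of all genes. Of the 8 receptors, 1 was called higher and 1 lower in CLPs than in LMPP-s, against 5.08% and 8.36% of all genes. Fas was higher in CLPs than in LMPP-s by 0.75 (limma adjusted p = 0.0091), though all its group means lay below the limit. Ltbr, the lymphotoxin beta receptor, was lower (difference -0.59, limma adjusted p = 0.0499). Cd27, a costimulatory receptor, averaged 8.02 in Ly6D+CLPs, 8.32 in Ly6D-CLPs, 8.27 in LMPP+s and 7.96 in LMPP-s and was not called.

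Downstream of the receptors, a list of 19 NF-κB kinases, subunits and inhibitors held 7 genes called higher in CLPs than in LMPP+s, 0 called lower and 12 that did not pass, against 2.23% of all genes called higher and 3.94% called lower. The median difference of the list was 0.313 against -0.001 for all genes, and 17 of the 19 were positive. All 19 had a mean at or above the low-signal limit in at least 1 group, against 13323 of all 23152 genes. The list and the shares over all genes are therefore not matched for signal. The count depended on the arrays, being 1 without array 2 of LMPP+s, 2 without array 3 of LMPP+s or array 1 of Ly6D+CLPs, 3 without array 2 of either CLP group and 4 without array 1 of LMPP+s. It was 0 with Ly6D-CLPs alone and 3 with Ly6D+CLPs alone. Other markers moved in the same comparison: the mature granulocyte sum was 8.71 to 9.5 in CLPs and 11.41 to 11.98 in LMPP+s, with 7 of 11 called lower. The erythroid and megakaryocyte sum was 7.57 to 7.74 in CLPs and 9.05 to 9.77 in LMPP+s, with 5 of 8 called lower, and 3 of 11 monocyte and macrophage markers were called lower. Of 9 dendritic cell markers, 3 were called higher and 1 lower, and of 9 stroma and endothelium markers 1 each way. The sum of 11 B lineage markers was 9.45 to 10.64 in CLPs and 9.17 to 9.26 in LMPP+s, with 3 called higher. Their part in the pathway counts was not tested.

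Rel (c-Rel), a subunit known from lymphocytes, read 10.33 and 10.15 in Ly6D+CLPs, 10.19 and 9.92 in Ly6D-CLPs, 9.40, 9.20 and 9.24 in LMPP+s, and 9.45, 8.98 and 9.37 in LMPP-s. The CLP arrays lay above all LMPP arrays, and CLPs exceeded LMPP+s by 0.86 (SE 0.15, limma adjusted p = 0.00849). Nfkbie, an inhibitor of the IκB family, read 8.30 and 8.34 in Ly6D+CLPs, 8.02 and 8.07 in Ly6D-CLPs, 7.49, 7.21 and 7.35 in LMPP+s, and 7.10, 7.12 and 6.61 in LMPP-s. It too separated the CLPs from both LMPP groups, and CLPs exceeded LMPP+s by 0.83 (SE 0.15, limma adjusted p = 0.00983). The others called higher were the nuclear IκB protein Nfkbiz (0.87, limma adjusted p = 0.0162), the subunits Relb (0.73, 0.0435) and Nfkb1 (0.67, 0.0256), the kinase adaptor Tab2 (0.53, 0.0311) and the kinase Map3k7, known as TAK1 (0.47, 0.0371). LMPP+s were the lowest group for Nfkb1, Tab2 and Map3k7, with means of 7.45, 7.97 and 7.58. LMPP-s had 7.86, 8.21 and 7.68 for these genes, closer to the CLPs. For Nfkbiz and Relb the lowest group was LMPP-s.

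The list of 19 receptor adaptors and ubiquitin ligases held 3 genes called higher and 1 lower in CLPs than in LMPP+s, against 2.23% and 3.94% of all genes. Of these 19, 18 had a mean at or above the limit in at least 1 group. Tnfaip3 (A20), the deubiquitinase that ends NF-κB signalling, read 8.62 and 8.88 in Ly6D+CLPs, 8.50 and 8.89 in Ly6D-CLPs, 8.21, 7.59 and 7.70 in LMPP+s, and 7.82, 7.16 and 7.10 in LMPP-s. Every CLP array exceeded every LMPP array, by 0.89 on average against LMPP+s (SE 0.21, limma adjusted p = 0.0357). Traf1, an adaptor of TNFR2 and 4-1BB, was higher by 0.97 (limma adjusted p = 0.0268), and Birc3 (cIAP2), a ubiquitin ligase of TRAF complexes, by 0.67 (limma adjusted p = 0.0268). Tradd, the death-domain adaptor of TNFR1, was lower (-0.55, limma adjusted p = 0.0385). The count of 1 lower was 0 without array 1 or 3 of LMPP-s or array 1 or 2 of LMPP+s. It was also 0 with arrays centred on their median, the median of probe sets, the replicate block or the compared arrays alone. With limma's trend and robust settings it rose. The count of 3 was 0 without array 2 or 3 of LMPP+s or without either Ly6D+CLPs array. In the list of death receptor, caspase and necroptosis genes, 8 measured, Mlkl and Ripk3, which carry out necroptosis, were lower in CLPs than in LMPP+s (-0.65 and -0.44, limma adjusted p = 0.0168 and 0.0486), against 3.94% of all genes called lower, and none was higher. All 8 had a mean at or above the limit in at least 1 group. Mlkl was low in Ly6D+CLPs alone, at 5.96 and 5.89. Its Ly6D-CLPs arrays, at 7.02 and 6.74, overlapped those of LMPP+s, at 6.98, 7.08 and 7.11.

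**Figure D4:**
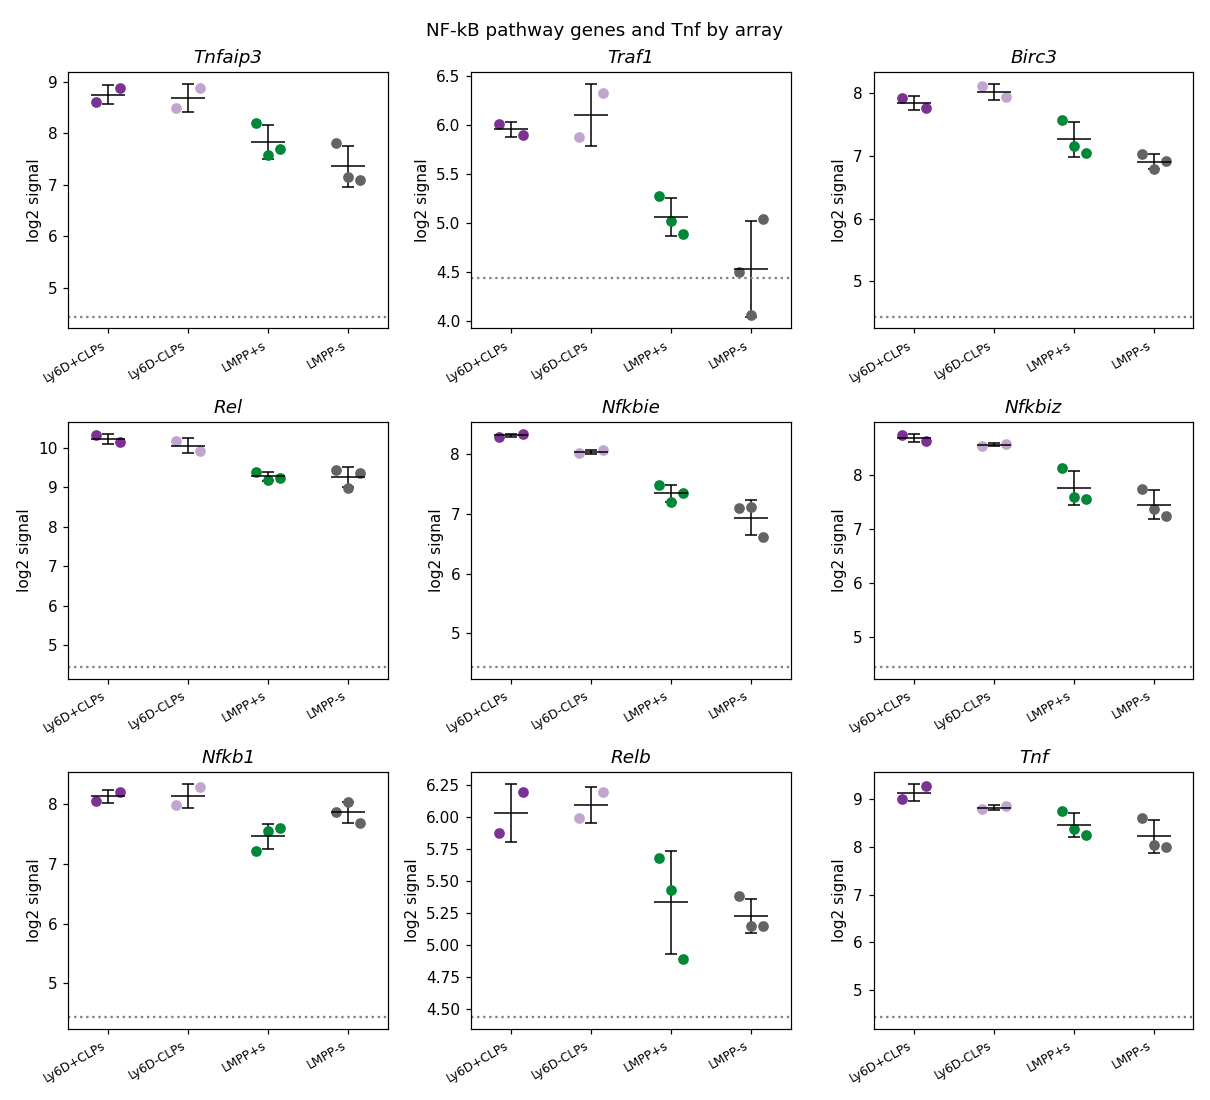
Levels (y axis, log2 signal) of 8 NF-κB pathway genes and Tnf in the 4 groups (x axis). Points are arrays, long bars are means, error bars are SD and the dotted line is the low-signal limit of 4.44. In Rel, the 4 CLP arrays lie between 9.92 and 10.33 and the LMPP+s arrays between 9.20 and 9.40.

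Against LMPP-s, the CLPs had 6 NF-κB genes higher and 1 lower of 19, Tab1 at -0.73, and 6 adaptor genes higher and 3 lower of 19, against 5.08% of all genes called higher and 8.36% lower. The 6 NF-κB genes became 3 without array 2 of LMPP-s, and the 1 lower became 0 without array 1 of LMPP-s. The 3 adaptor genes called lower became 0 without array 1 of LMPP-s and 1 without array 2 or 3 of LMPP-s or array 1 of Ly6D+CLPs, and the 6 called higher became 2 with the brightest probe set. Traf1 was higher by 1.5, Tnfaip3 by 1.36 and Birc3 by 1.02 (limma adjusted p = 0.00124, 0.00205 and 0.00131). Between LMPP+s and LMPP-s, and between Ly6D+CLPs and Ly6D-CLPs, no gene of these 3 lists was called by limma. At an unadjusted p under 0.05, 4 adaptor, 2 NF-κB and 1 death receptor list genes passed between the LMPP groups, and 1, 0 and 1 between the CLP groups, against 11.1% and 9.1% of all genes.

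**Figure D5:**
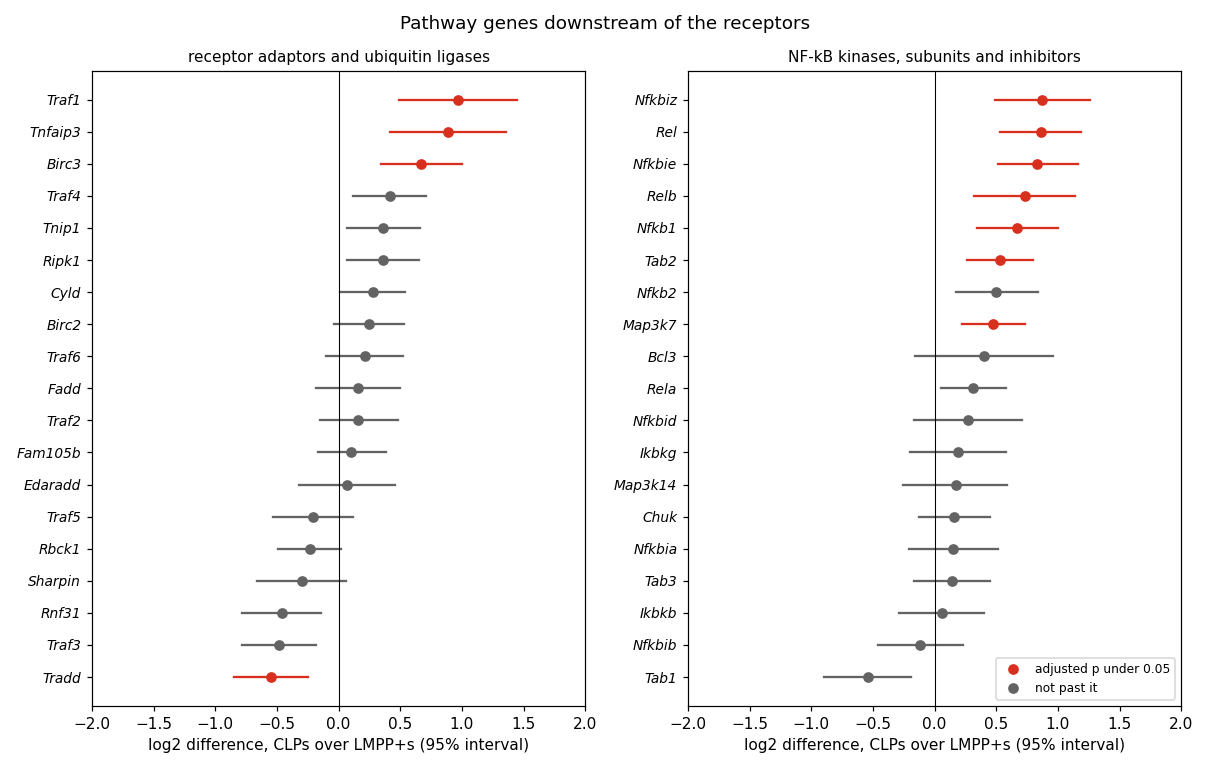
Log2 differences of CLPs over LMPP+s (x axis, with 95% intervals from limma) for 19 receptor adaptors and ubiquitin ligases and 19 NF-κB kinases, subunits and inhibitors (y axis). Red marks an adjusted p under 0.05, for 4 genes on the left and 7 on the right. Nfkbiz, Rel and Nfkbie lie highest on the right, at 0.87, 0.86 and 0.83.

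Promoter windows of 3 of the genes called higher are shown because they hold the NF-κB consensus motif, in capitals. They are Rel at chr11:23770970-23771219 (minus strand), Nfkbie at chr17:45555450-45555699 (plus strand) and Tnfaip3 at chr10:19015411-19015660 (minus strand), from RefSeq on GRCm38.p6. In the Tnfaip3 window the first capitals mark TATAAA and the other 2 runs mark the NF-κB motif.
Rel: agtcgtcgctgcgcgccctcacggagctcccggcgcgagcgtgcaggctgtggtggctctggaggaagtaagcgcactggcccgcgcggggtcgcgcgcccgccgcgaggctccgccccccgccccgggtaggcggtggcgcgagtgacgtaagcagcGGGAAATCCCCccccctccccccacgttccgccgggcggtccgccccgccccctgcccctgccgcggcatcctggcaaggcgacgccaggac
Nfkbie: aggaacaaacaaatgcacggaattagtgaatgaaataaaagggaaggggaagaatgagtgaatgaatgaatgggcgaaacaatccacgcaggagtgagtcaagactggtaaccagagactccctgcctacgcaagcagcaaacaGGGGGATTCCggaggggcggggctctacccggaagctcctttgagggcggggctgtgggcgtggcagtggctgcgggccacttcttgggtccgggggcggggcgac
Tnfaip3: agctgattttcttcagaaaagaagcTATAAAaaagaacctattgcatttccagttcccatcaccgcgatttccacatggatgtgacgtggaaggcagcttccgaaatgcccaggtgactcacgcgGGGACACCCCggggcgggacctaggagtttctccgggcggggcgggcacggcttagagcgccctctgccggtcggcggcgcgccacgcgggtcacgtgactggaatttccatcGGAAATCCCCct
Of the 7 NF-κB genes called higher, 4 had a window in the table and 3 of these held the motif (Rel, Nfkbie and Map3k7), and of the 12 not called, 10 had a window and 3 held it. Among adaptors, 1 of 3 called higher and 3 of 13 not called held it. Called or not, 8 of 22 windows of the NF-κB list (36.36%) and 4 of 21 of the adaptor list (19.05%) held the motif. Of all windows, 3.9% held it. More than 1 of the NF-κB list windows with the motif belong to the same gene, Nfkb2. Among all genes with a window, 4.46% held it in at least 1 window. A second Tnfaip3 window, at chr10:19011964-19012213, had no match. These matches describe letters in the window and say nothing of binding.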

How the data were processed

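The deposited values are log2 signals of 269751 probe sets on 10 arrays, read as log2 from their range of 0.2043 to 14.79, no log base being stated in the labels. The arrays were processed by the authors with Affymetrix Power Tools, per the submitters' processing notes. The sources used here do not give its version, summary method, normalization or genome build. Array quartiles differed by at most 0.125, and the values were used without further normalization. Precision is limited by how few arrays there are.

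The 233753 probe sets with 1 symbol were averaged into 23152 genes. The 5106 with several symbols and 30892 with none were left out. One mean per group was fitted with limma 3.58.1 in R 4.3.3, with p-values adjusted by Benjamini-Hochberg over all genes at 0.05. How well the assumptions of this model hold for these arrays was not tested. CLPs are the equal mean of their 2 groups. Folds against a group under the low-signal limit use the limit. The members and lists were chosen with earlier results of these data known. Named genes are the members and, from each list, up to 4 called genes with the largest differences. Nfkb1, Tab2, Map3k7, Cd27, Flt3, Blnk, Cd5 and Thy1 were picked after their values were seen. So were the genes under other symbols or in the lists that are given by array. Promoter windows are those of RefSeq, GRCm38.p6. Figures used Python 3.11.15, pandas 2.3.3 and matplotlib 3.10.9.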

Additional observations from a re-analysis of the deposited data

How the results depend on the processing

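The Tnfsf11 calls against LMPP-s held in all 19 (LMPP+s) and 21 (CLPs) alternative settings, and Tnfsf13 (CLPs against LMPP-s) in all 21. Tnfsf9 held in 18 of 19 (LMPP+s) and 20 of 21 (CLPs) settings, and Tnfsf4 in 16 of 20 against LMPP+s and 18 of 20 against LMPP-s. No called difference changed direction. The count of 2 members called between LMPP+s and LMPP-s was 1 with each gene's brightest probe set. The count of 2 between CLPs and LMPP+s was 1 with probe sets above the limit alone, 1 with the compared arrays alone, 1 with Ly6D+CLPs alone, 0 with Ly6D-CLPs alone and 0 at a 2-fold threshold. Leaving out each array in turn gave 2 to 2 members between the LMPP groups, 0 to 2 for CLPs against LMPP+s, 4 to 6 for CLPs against LMPP-s, 0 to 0 between the CLP groups and 3 to 5 by the F test. With the replicate number as a block, the count between CLPs and LMPP+s was 1, Tnfrsf9 being lost (0.58, limma adjusted p = 0.0934), that for CLPs against LMPP-s was 5 and the F test gave 3. Deviations from the group means correlated over 0.1 in 1 of 13 pairs of the same number (-0.043 to 0.127). The same held for 1 of 24 pairs of unlike number (-0.136 to 0.136). The 2 arrays of a CLP group deviate in opposite directions by construction, so the pairs are not independent. These values cannot settle whether arrays of the same number share an animal, pool or sort. The NF-κB list count of 7, rerun in settings added after seeing the data, ran from 0 to 9, with 4 under the block, 4 with the compared arrays alone and 3 with the median of probe sets. The adaptor count of 3 ran from 0 to 4. The causes of these shifts were not tested, and low signal limits Tnfrsf9, Tnfsf4 and the 7 members below the limit.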
